A study of Mus musculus with 16 samples.

Results

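Gene expression was compared between Flk1+ mesodermal cells and the first stage of the hemogenic endothelium (HE1) in Sp1+/+ cells, which gives 4 arrays, 2 of each population, out of the 16 arrays of the series. Both populations were made from ES cells in vitro. The labels name the cells E14 and give their genotype as wild type for Sp1, a ubiquitous zinc finger transcription factor. They also give the strain as C57BL/6, which was not checked against the line named. All 4 samples thus share 1 line, so a feature of that line cannot be told apart from a feature of wild-type cells. For the Flk1+ samples, embryoid bodies grown in serum for a few days were dispersed, and cells carrying Flk1, the VEGF receptor encoded by Kdr, were held back on magnetic columns with an antibody. For the HE1 samples, such Flk1+ cells were plated on gelatin in blast medium, which holds VEGF, IL-6 and medium conditioned by D4T endothelial cells, and after some days floating and adherent cells were pooled. A flow sorter then collected cells that carried KIT and Tie2 (Tek) but no CD41 (Itga2b). Stage, time, medium, substrate and method of sorting therefore change together between Flk1+ and HE1, and their parts in any difference cannot be told apart. The other 12 arrays hold the later HE2 and progenitor populations of the same cells and all 4 populations of Sp1-/- ES cells, which make an Sp1 protein without its DNA-binding domain. The deposited record calls the replicates independent, and the text of the study speaks of biological replicates, whereas one of its legends speaks of technical replicates, so the p-values below measure the spread between these samples, which may be technical.

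Flk1+ cells of the embryoid body stand for the mesoderm that leaves the primitive streak and holds the hemangioblast, the precursor that yields endothelium, blood and smooth muscle. In blast culture the hemangioblast first becomes a sheet of hemogenic endothelium, endothelial cells from which blood cells later round up in the endothelial-to-hematopoietic transition. HE1 is the stage before that transition. The T-box factors, Wnt, Nodal and FGF signals rule the streak, Etv2 opens the endothelial program downstream of them, and ETS, SOX and GATA factors, VEGF and Notch maintain it, while Runx1 is needed for blood cells to emerge.

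All 4 arrays lie on 1 slide. Between 67.0 and 72.4% of their spots were well above background, and no spot was saturated. Levels are given as the deposited normalized log2 intensities, which run from about 5.65 to 18.99, so that a difference of 1 is a 2-fold change of that intensity. The intensity holds an added offset, which shrinks the changes of weak signals. Where a gene is given 4 levels in a row, those of the Flk1+ arrays of replicates 1 and 2 come first, then those of the HE1 arrays in the same order. The number of arrays limits the precision. Replicates of a population correlated at 0.995 (Flk1+) and 0.995 (HE1) across features, and arrays of different populations between 0.966 and 0.971; features are not independent replicates. Of 37149 features tested, 20118 with a gene symbol, 1731 were higher in HE1 (4.66% of all features, or 7.23% of those with a symbol) and 1450 lower (3.90%, or 5.48%). Together they make 8.56% of all features and 12.7% of those with a symbol. A feature was called where limma gave it a 2-fold change or more with a p, before adjustment, no higher than 0.01. Those are the calls meant below by rose and fell, and the shares are the background for the counts of each gene list. The largest Benjamini-Hochberg adjusted p among the called features was 0.0417. The median change of all features was -0.01 on the log2 scale with a median standard error of 0.14. A positive change was found for 17731 features and a negative one for 19281, which is the background for counts of signs below. Of the called features, 95 were at least 16-fold higher and 57 at least 16-fold lower. Because the samples are bulk RNA, fewer cells of one kind and less RNA per cell cannot be told apart.

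**Figure D1:**
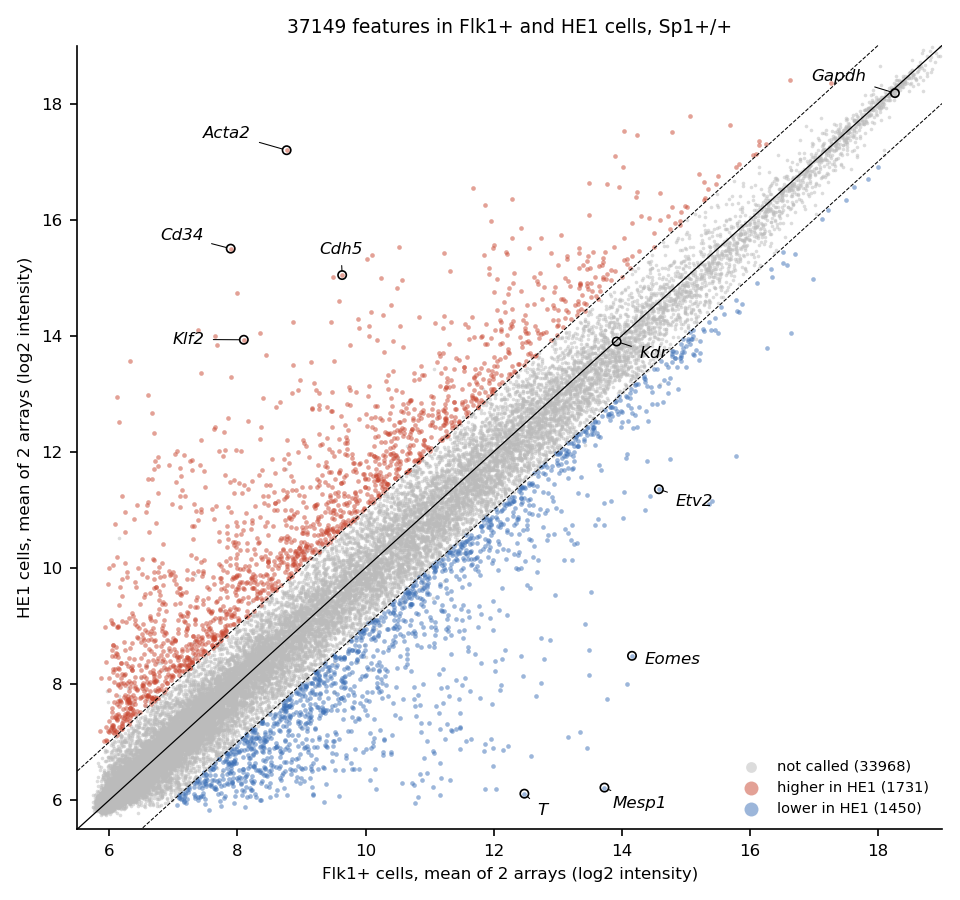
Mean log2 intensity of 2 HE1 arrays against that of 2 Flk1+ arrays for 37149 features, with the line of equal levels (solid) and the 2-fold lines (dashed). The 1731 features higher in HE1 are red and the 1450 lower ones blue; Acta2, Cd34, Cdh5 and Klf2 lie far above the lines, Mesp1, T and Eomes far below, and Kdr and Gapdh on the diagonal.

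The genes of the sorted proteins were read first, as a check of the labels and not as a finding. Kdr, by which the mesoderm was isolated, differed little between the populations, at 13.97 and 13.87 on the Flk1+ arrays and 13.74 and 14.06 on the HE1 arrays. Tek, encoding the Tie2 receptor of the HE1 gate, was at 7.16 and 8.15 in Flk1+ cells and at 12.34 and 12.50 in HE1. Kit, the stem cell factor receptor of the same gate, was at 9.91 and 11.04, then 12.31 and 11.59. For both receptors the HE1 arrays lay above the Flk1+ arrays. With the change then measured in brackets, 1 array fewer ended the call of Kit without Flk1+ replicate 1 (0.91) or HE1 replicate 1 (1.12). Itga2b was also higher in HE1, at 10.61 and 10.60 against 7.37 and 8.30 in Flk1+ cells, although the gate left out cells with its protein CD41. In the CD41+ HE2 cells it was at 12.21 and 11.95.

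Endothelial identity was read from Cdh5, encoding VE-cadherin of the endothelial junction, and Pecam1, encoding CD31. Cdh5 was at 9.04 and 10.23 on the Flk1+ arrays and at 15.16 and 14.93 on the HE1 arrays, a rise of 5.41 ± 0.43 (log2 change ± SE, n = 2 arrays in each group; adjusted p = 5.56e-06, limma). Pecam1 was at 7.84 and 8.51, then 11.29 and 11.43, a rise of 3.19 ± 0.26. For both genes all HE1 values lay above all Flk1+ values, and such a gap in one direction or the other was found for 55.9% of all features and 64.0% of those with a symbol. Of the 6 sort and label genes 5 rose, all but Kdr. Of 10 endothelial markers, 9 rose, Sox7 being the one that did not pass the p threshold, and their mean level was 8.25 and 9.09 in Flk1+ cells against 12.70 and 12.90 in HE1. Of the mesodermal markers 6 of 7 fell, all but Kdr, and in HE1 T and Mixl1 were not well above background on either array. The Flk1+ label thus matches its mesodermal markers and the HE1 label its endothelial ones. Itga2b, among the 5 sort and label genes that rose, is an exception, because the HE1 gate left out cells with its protein.

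Markers of other cells were read in the same way. The 5 cardiac and smooth muscle markers had mean levels of 9.30 and 9.36 in Flk1+ cells and 12.57 and 12.60 in HE1, and 4 of them rose while 1, Myl7, fell. The 7 blood markers differed between the HE1 arrays, at 10.02 on the array of replicate 1 and 8.28 on that of replicate 2, against 7.78 and 8.29 in Flk1+ cells, and 3 of them rose while 1, Gata1, fell. The 3 fibroblast markers (Col1a1, Col3a1, Dcn) were at 9.91 and 8.60 in HE1 and at 8.28 and 8.57 in Flk1+ cells. Of these, 1 rose, Col3a1. The 4 pluripotency markers were at 8.65 and 8.24 in Flk1+ cells and at 7.27 and 7.19 in HE1, with 2 of them lower, and Sox2 was not well above background on either HE1 array. The 3 endoderm markers had means of 6.33 and 6.38, then 6.95 and 6.92, and 1 of them, Foxa2, rose. Afp was not well above background on any of the 4 arrays, nor was Ttr on either HE1 array. The 2 neural markers had means of 6.74 and 6.83, then 7.24 and 6.99. The mesodermal markers were higher on the Flk1+ array of replicate 1 (13.37 against 12.48) and the endothelial ones on that of replicate 2, so the Flk1+ arrays differed along the axis that separates Flk1+ from HE1. The part of other cell types in the differences below was not tested.

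The largest rise of all named genes was that of Acta2, encoding smooth muscle α-actin, from 8.47 and 9.07 to 17.60 and 16.79, or 344-fold (log2 8.43 ± 0.47). Cd34, the sialomucin of endothelium and blood stem cells, followed with 7.53 and 8.26 in Flk1+ cells and 14.99 and 16.01 in HE1, 195-fold higher. Ankrd1, which encodes an ankyrin repeat protein of stretched muscle and endothelium, was at 6.42 and 6.24, then 13.17 and 13.97, 151-fold higher. None of these genes had overlapping groups, and the lowest HE1 value of each was far above its highest Flk1+ value. Anxa1, encoding annexin A1, was not well above background on either Flk1+ array and rose at least 113-fold (adjusted p = 9.42e-08, limma), and Fmo1, a flavin-containing monooxygenase, likewise rose at least 82.4-fold (adjusted p = 8.43e-08, limma). Here and below "at least" sets the mean of the population with the higher level against the other population. On each array of that other population, the higher of the gene's own signal and the lowest signal well above background was taken. The lectin-like receptor gene Cd93 rose 107-fold, the gene of the vasoconstrictor endothelin, Edn1, 82.9-fold, the flow-responsive factor gene Klf2 56.9-fold, and the endothelial receptor gene Tie1 51.6-fold. Trim47 (105-fold), Oit3 (80.7-fold), Sh3tc1 (72.0-fold), Tmem204 (49.5-fold) and Gap43 (46.2-fold) were also among the 15 largest rises, of which 14 are named. Standard errors of these 14 changes ran from 0.23 to 0.74 on the log2 scale.

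The largest fall was that of Mesp1, the first marker of cardiac and vascular mesoderm, from 14.57 and 12.89 on the Flk1+ arrays to 6.05 and 6.38 on the HE1 arrays, or 183-fold (log2 -7.52 ± 0.39). T, encoding Brachyury of the primitive streak, was at 12.82 and 12.14 in Flk1+ cells and not well above background in HE1, a fall of at least 82.1-fold (adjusted p = 8.48e-09, limma). Eomes, its T-box relative, went from 14.67 and 13.65 to 8.33 and 8.64, 51.1-fold lower. The Flk1+ array of replicate 1 was higher than that of replicate 2 for all of Mesp1, T and Eomes, yet both lay far above the HE1 arrays. Sp5, a target of Wnt signalling, fell at least 57.3-fold, and Mixl1, a homeobox gene of the streak, at least 33.0-fold. Also among the 15 were Cfc1, encoding a co-receptor of Nodal (72.8-fold), the streak homeobox gene Evx1 (65.3-fold), the pluripotency-associated Dppa5a (67.9-fold), the growth factor genes Fgf3 (39.3-fold) and Bmp7 (38.6-fold), the imprinted gene Phlda2 (95.0-fold), the TNF receptor family gene Tnfrsf19 (34.2-fold), Vrtn (67.2-fold), Zcchc12 (56.9-fold) and Vstm2b (42.2-fold). Standard errors of the 15 falls ran from 0.15 to 0.44 on the log2 scale.

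**Figure D2:**
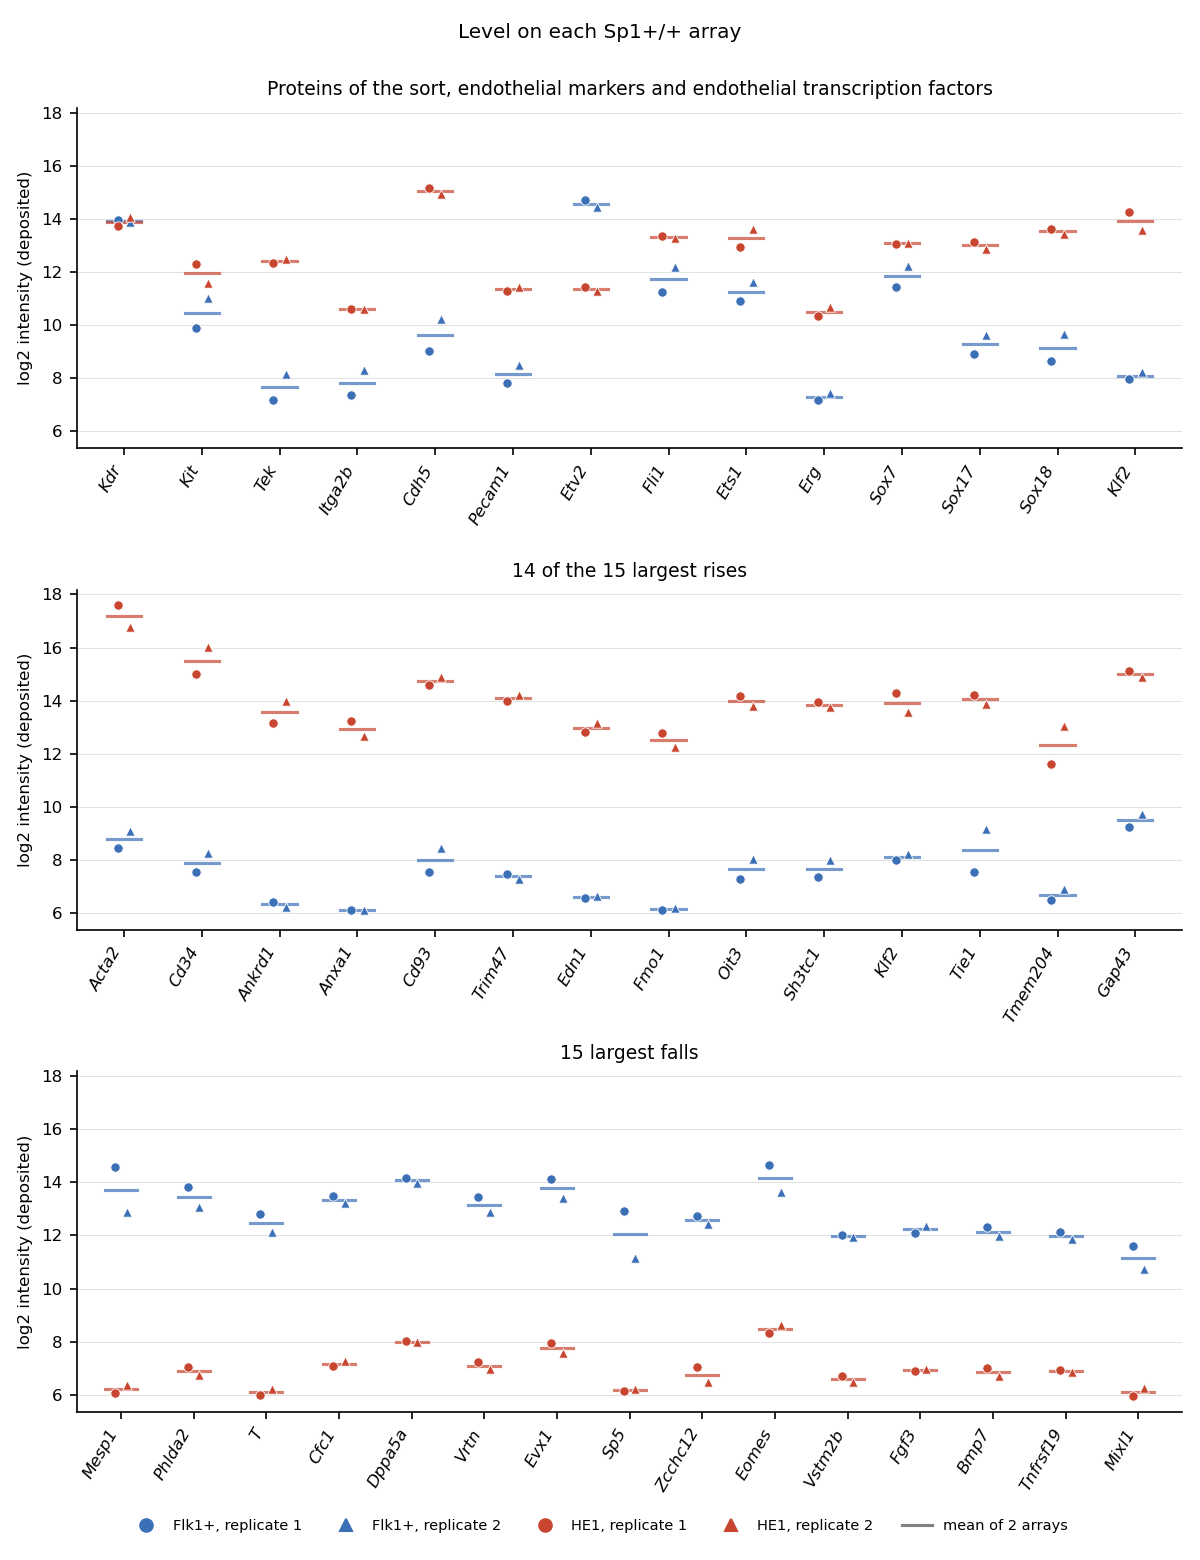
Deposited log2 intensity of each gene on the 2 Flk1+ arrays (blue) and the 2 HE1 arrays (red), replicate 1 as circles, replicate 2 as triangles and the mean of 2 arrays as a bar. The groups overlap for Kdr but for no gene in the panels of rises and falls; for most rising genes the Flk1+ array of replicate 2 is above that of replicate 1.

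Genes of endothelial receptors rose in 14 of 20 cases and fell in 2, with a median log2 change of 2.62. Tie1 was at 7.55 and 9.16 in Flk1+ cells and at 14.23 and 13.86 in HE1. Robo4, encoding the receptor for Slit ligands that steadies vessels, was at 8.17 and 7.62, then 12.94 and 13.64, and Eng, encoding the BMP and TGF-β co-receptor endoglin, at 9.80 and 10.31, then 13.95 and 14.37. The phosphatase gene of the endothelial junction, Ptprb, rose by 4.40 ± 0.60, the adhesion GPCR gene Adgrf5 by 4.06 ± 0.55, the sphingosine phosphate receptor gene S1pr1 by 3.85 ± 0.18, the ALK1 gene Acvrl1 by 3.16 ± 0.37 and the VEGF decoy receptor gene Flt1 by 2.56 ± 0.36. The receptors that fell were the chemokine receptor gene Cxcr4, from 11.24 and 10.52 to 6.34 and 6.35, and Ackr3, the scavenger of the same ligand, from 11.39 and 11.52 to 8.24 and 7.25. For all these receptors both arrays of one population lay on 1 side of both arrays of the other.

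Promoter sequences are shown for 4 of these rising vascular genes, to set the letters near the start sites beside the levels. They were chosen because their windows hold the motif marked, which the window of Tek does not. The windows come from RefSeq (GRCm38.p6), span 250 bases before to 50 after each start, and are printed on the strand of the gene with AGGAAG, the core that many ETS factors read, or its reverse complement in capitals. The Tie1 window is chr4:118489800-118490099 on the minus strand, and the Eng window chr2:32646345-32646644, the Robo4 window chr9:37401722-37402021 and the Cd34 window chr1:194938571-194938870 are on the plus strand.
Tie1: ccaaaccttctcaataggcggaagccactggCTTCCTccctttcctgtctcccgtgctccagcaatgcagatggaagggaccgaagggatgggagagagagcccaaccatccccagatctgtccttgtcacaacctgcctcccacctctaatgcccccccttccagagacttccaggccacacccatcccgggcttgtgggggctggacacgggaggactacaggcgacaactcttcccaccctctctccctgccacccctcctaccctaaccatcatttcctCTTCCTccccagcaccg
Eng: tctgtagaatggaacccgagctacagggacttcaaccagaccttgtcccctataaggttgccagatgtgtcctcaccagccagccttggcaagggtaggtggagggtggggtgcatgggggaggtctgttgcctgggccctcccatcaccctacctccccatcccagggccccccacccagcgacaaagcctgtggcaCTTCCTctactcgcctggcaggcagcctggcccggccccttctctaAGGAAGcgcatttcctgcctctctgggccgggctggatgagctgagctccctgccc
Robo4: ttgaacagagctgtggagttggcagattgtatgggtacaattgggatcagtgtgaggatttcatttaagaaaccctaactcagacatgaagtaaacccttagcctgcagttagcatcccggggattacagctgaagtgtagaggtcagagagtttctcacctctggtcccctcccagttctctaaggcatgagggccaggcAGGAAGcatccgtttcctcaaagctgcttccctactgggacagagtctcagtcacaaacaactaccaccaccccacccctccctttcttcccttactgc
Cd34: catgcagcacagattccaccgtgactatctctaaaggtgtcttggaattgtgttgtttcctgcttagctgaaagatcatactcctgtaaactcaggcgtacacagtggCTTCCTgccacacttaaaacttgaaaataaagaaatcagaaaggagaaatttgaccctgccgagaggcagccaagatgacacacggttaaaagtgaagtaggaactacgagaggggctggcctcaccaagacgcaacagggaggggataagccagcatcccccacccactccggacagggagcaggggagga

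These sequences stand beside rises of 5.69, 4.11, 5.40 and 7.61 on the log2 scale. The letters AGGAAG stood in 9 of 16 windows of the endothelial receptor genes and in 8 of 20 windows of the surface, junction and secreted genes. In the endothelial transcription factor genes these letters stood in 8 of 21 windows. They stood in 38.2% of 1533 windows of genes that rose, in 30.0% of 1107 windows of genes that fell and in 33.5% of all 19549 windows of the 15960 tested genes that have one. The related core CGGAAG was found in 17.7% of windows of genes that rose, 19.6% of those that fell and 22.1% of all. In the endothelial lists, in the order given above, it stood in 1 of 16, 3 of 20 and 1 of 21 windows. The Sp and Klf box GGGCGG was in 60.1% of windows of genes that rose and 62.5% of those that fell, against 49.2% of all. Every called feature was well above background on both arrays of a population, against 16091 of 20118 features with a symbol. All windows are therefore an unlike background for the called genes. Shares in genes that rose, genes that fell and all genes were 7.76, 5.78 and 9.36% for AGATAA, read by GATA factors, 13.6, 11.3 and 14.2% for TGTGGT (RUNX), 9.59, 8.40 and 11.2% for TGTTTA (FOX), 20.2, 15.8 and 16.1% for CAGCTG (E-box) and 8.41, 7.14 and 10.2% for ACAATG (SOX). They were 6.33, 3.16 and 4.60% for TGACTCA (AP-1), 4.44, 2.26 and 3.26% for ACATTCC (TEAD), 0.652, 0.903 and 1.15% for AGGTGTGA (T-box), 1.44, 2.62 and 1.64% for ATGCAAAT (OCT), 9.59, 7.05 and 11.9% for TATAAA of the core promoter, 2.28, 2.53 and 3.19% for ATCAAAG (TCF and LEF) and 2.15, 1.99 and 1.45% for the CArG box of SRF. Both strands were searched, the motifs were counted independently of one another, and a match is a description of these letters and no site of binding.

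Surface, junction and secreted proteins of endothelium had 21 of 30 genes higher in HE1, 0 lower and a median change of 2.59. Beside Cd34 and Cd93, the scavenger receptor gene Stab1 was at 6.31 and 7.21, then 11.77 and 12.04, the adhesion molecule gene Icam2 at 9.37 and 10.68, then 15.32 and 15.34, and Mmrn2, encoding a matrix ligand of CD93, at 8.94 and 9.98, then 14.08 and 14.40. The junctional gene Esam rose by 3.74 ± 0.40 and the tight junction gene Cldn5 by 3.57 ± 0.54. Thbd, encoding thrombomodulin, rose by 4.62 ± 0.46 and Procr, the protein C receptor gene, by 4.07 ± 0.21. Nos3, the endothelial nitric oxide synthase gene, rose by 3.63 ± 0.73, and Vwf, encoding von Willebrand factor, by 2.68 ± 0.26. Emcn, encoding endomucin, was not above background in Flk1+ cells and rose at least 9.92-fold (adjusted p = 2.34e-05, limma). Lyve1, a gene of lymphatic and yolk sac endothelium, rose by 3.56 ± 0.17. Sele, encoding the selectin of inflamed endothelium, was not above background in Flk1+ cells and was at 6.45 and 6.35 in HE1, and was not called.

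Of 24 endothelial transcription factor genes, 16 rose and 2 fell (median 1.63). Etv2, the ETS factor that starts the endothelial program, fell from 14.72 and 14.44 to 11.42 and 11.29, 9.35-fold lower, and Foxf1 fell by 1.72 on the log2 scale. The ETS factor gene Erg was at 7.16 and 7.45, then 10.33 and 10.68, and the genes of the same family Elk3, Ets1, Ets2 and Fli1 rose by 3.15 ± 0.31, 2.02 ± 0.34, 1.88 ± 0.20 and 1.59 ± 0.27. All 3 genes of SoxF factors, which share roles in vessels, lay higher on both HE1 arrays. Sox18 was at 8.64 and 9.65, then 13.63 and 13.45 and Sox17 at 8.92 and 9.63, then 13.14 and 12.88, while Sox7, at 11.45 and 12.22, then 13.07 and 13.09, had an unadjusted p of 0.119 in limma and was not called. The shear-responsive Klf2 was at 7.98 and 8.22 in Flk1+ cells and 14.27 and 13.59 in HE1. Foxo1 rose by 2.44 ± 0.14 and Nr2f2, which encodes the venous factor COUP-TFII, by 2.09 ± 0.20.

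Regulators of small GTPases and of the cortical cytoskeleton known from endothelium rose in 16 of 23 cases, none fell, and all 23 had a positive change (median 2.41). Ccm2l, a partner of the HEG1 and CCM complex, was at 6.71 and 7.41, then 12.31 and 11.73. The Rac and Cdc42 GAP gene Arhgap31 rose by 4.17 ± 0.34, Rasip1, required for vascular lumens, by 3.55 ± 0.36, Myct1 by 3.28 ± 0.22 and Rhoj, a small GTPase gene of endothelium, by 2.63 ± 0.26. Ligands acting on vessels were higher in 8 of 18 cases and lower in 1 (median 0.61). After Edn1 the largest rise was that of Pdgfb, which recruits mural cells, from 11.44 and 12.25 to 15.22 and 15.57. Slit2, a ligand of Robo receptors, rose by 2.69 ± 0.28, Angpt2, the ligand of Tie2 stored in endothelium, by 2.35 ± 0.22 and Vegfa by 1.77 ± 0.30, whereas Pdgfa fell by 1.52.

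The Notch pathway, which directs arterial and hemogenic fate, was split, with 7 of 25 genes higher, 5 lower and a median of 0.09. Notch4, the endothelial receptor, was at 8.58 and 8.59, then 11.31 and 11.95, and the glycosyltransferase gene Mfng rose by 2.47 ± 0.14. The ligand gene Jag2 rose by 1.49 ± 0.26. Notch3 fell by 1.22 and Notch2 by 1.31, or by 0.76 and uncalled as the mean over its probes, while Notch1 was at 8.59 and 7.99, then 8.43 and 8.32. Of the target genes, Hes1 fell by 2.06 and Hey1 by 1.62, and the mesodermal ligand gene Dll3 by 2.85. As the changes in brackets show, the call was lost for Hes1 without Flk1+ replicate 1 (-1.84) or HE1 replicate 1 (-2.04).

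Genes of the basement membrane, the sheet that endothelial cells lay down, rose in 10 of 17 cases and fell in 0 (median 1.22). Col18a1 was at 11.48 and 12.44, then 15.92 and 16.02, the nidogen gene Nid1 at 10.71 and 10.96, then 14.21 and 14.43, and the type IV collagen genes Col4a1 and Col4a2 rose by 2.95 ± 0.39 and 2.97 ± 0.35. Hspg2, encoding perlecan, rose by 2.17 ± 0.34. In the interstitial matrix 13 of 33 genes rose and 2 fell (median 0.33). Thbs1, encoding thrombospondin, was at 6.73 and 6.67, then 12.04 and 11.36, and the matricellular genes Ccn2 and Ccn1 rose by 4.08 ± 0.31 and 2.98 ± 0.16. Col3a1 rose by 2.95 ± 0.38 and Col1a2 by 2.29 ± 0.47, and Postn, not above background in Flk1+ cells, at least 13.0-fold (adjusted p = 0.00471, limma). Col1a1, at 10.97 and 12.05, then 12.18 and 9.97, was not called, and Col2a1 and Fbln1 fell by 2.53 and 1.74. Of 22 integrin genes 8 rose and 1 fell (median 0.52). Itga1 and Itga3 rose by 3.43 ± 0.38 and 3.41 ± 0.23, and the fibronectin receptor gene Itga5 by 1.59 ± 0.15, whereas Itgb5 fell by 2.03.

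Smooth muscle and cardiac genes did not move as 1 group, with 11 of 33 higher, 6 lower and a median of 0.39. Next to Acta2, Tagln, encoding transgelin, was at 11.55 and 11.81, then 16.71 and 16.38, and Cald1, Cnn2 and Myl9 rose by 2.49 ± 0.24, 2.42 ± 0.14 and 2.17 ± 0.25. Myh11, encoding the myosin heavy chain of mature smooth muscle, was at 6.06 and 6.37, then 6.89 and 6.25 and Des, encoding desmin, at 8.16 and 8.08, then 7.17 and 7.31, and neither was called. Of cardiac genes, Tnnt2 rose by 3.58 ± 0.41 and Nkx2-5 by 2.08 ± 0.37, while Myl7 fell by 2.66, Myl4 by 1.91 and Tbx5 by 1.36. Immediate early genes, many of them targets of SRF and of stress signals, were higher in 10 of 19 cases and lower in 2 (median 1.23). Fosb was at 7.03 and 7.61, then 11.66 and 10.55, Atf3 at 9.12 and 9.43, then 12.57 and 12.90 and Fos at 8.32 and 7.72, then 11.99 and 10.94, and Jun rose by 2.54 ± 0.23. The part of sorting and handling in the level of these genes was not tested. The falls of that list were Myc, a growth factor target, by 2.08 and Egr2 by 1.05. Leaving out 1 array, with the change then measured in brackets, ended the call of Egr2 without Flk1+ replicate 1 (-0.72) or HE1 replicate 2 (-0.97).

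Transcription factors of blood gave 7 rises and 4 falls among 32 genes, and a median of -0.11. Runx1 was at 10.70 and 11.28 in Flk1+ cells and at 10.03 and 9.08 in HE1, a fall of 1.44 ± 0.32. Gata1, the erythroid factor gene, was at 10.24 and 11.19, then 9.57 and 6.89, and the groups did not overlap although the HE1 arrays lay far apart. Lmo2, a bridging factor of Tal1 complexes, fell by 1.07 and Ikzf1, a lymphoid factor gene, by 1.24. With the change then measured in brackets, 1 array fewer ended the call of Runx1 without Flk1+ replicate 2 (-1.15) or HE1 replicate 2 (-0.96), of Gata1 without Flk1+ replicate 2 (-2.01) or HE1 replicate 2 (-1.15), of Lmo2 without Flk1+ replicate 2 (-0.90) or HE1 replicate 1 (-0.82) and of Ikzf1 without Flk1+ replicate 2 (-0.88) or HE1 replicate 2 (-0.94). Tal1, the master gene of the hemangioblast, kept a high level, 13.23 and 13.94, then 13.40 and 13.20, and Gata2 was at 13.10 and 13.30, then 12.21 and 12.46, and neither was called. Among the rises were Meis1, at 8.45 and 8.43, then 11.68 and 11.16, and Lyl1, a relative of Tal1, by 1.89 ± 0.35, beside Erg, Fli1 and Fos named above. Spi1, which encodes PU.1 of myeloid cells, was above background on 1 of the 4 arrays, a Flk1+ array.

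Effector genes of blood cells rose in 9 of 40 cases and fell in 1 (median 0.31), and the globins among them differed between the HE1 arrays. Hba-x, the embryonic ζ-globin gene, was at 6.14 and 6.16 in Flk1+ cells and at 13.49 and 7.55 on the HE1 arrays of replicates 1 and 2. Hbb-bh1 was at 10.37 and 11.78, then 15.62 and 11.22, Hbb-y at 7.36 and 7.98, then 13.01 and 9.12, and Hba-a1 at 7.16 and 7.52, then 12.44 and 7.32. On the HE1 array of replicate 2, Hbb-bh1 and Hba-a1 thus lay within the range of Flk1+ cells. Of these 4 genes, Hbb-y was called (log2 3.40 ± 1.06). As the changes in brackets show, the call was lost for Hbb-y without Flk1+ replicate 1 (3.09), Flk1+ replicate 2 (3.71) or HE1 replicate 1 (1.45). The α-globin and β-globin genes are near-identical families whose probes may share signal. Away from the globins, Csf2rb rose by 3.05 ± 0.34, Itgb3 by 2.49 ± 0.41, Cd44 by 1.84 ± 0.18 and the guanine exchange factor gene Vav1 by 1.76 ± 0.18, while Spn, encoding CD43, fell by 1.47, or by 0.81 and uncalled as the mean over its probes. Ptprc, encoding the pan-blood antigen CD45, was at 6.56 and 6.72, then 6.58 and 6.77.

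**Figure D3:**
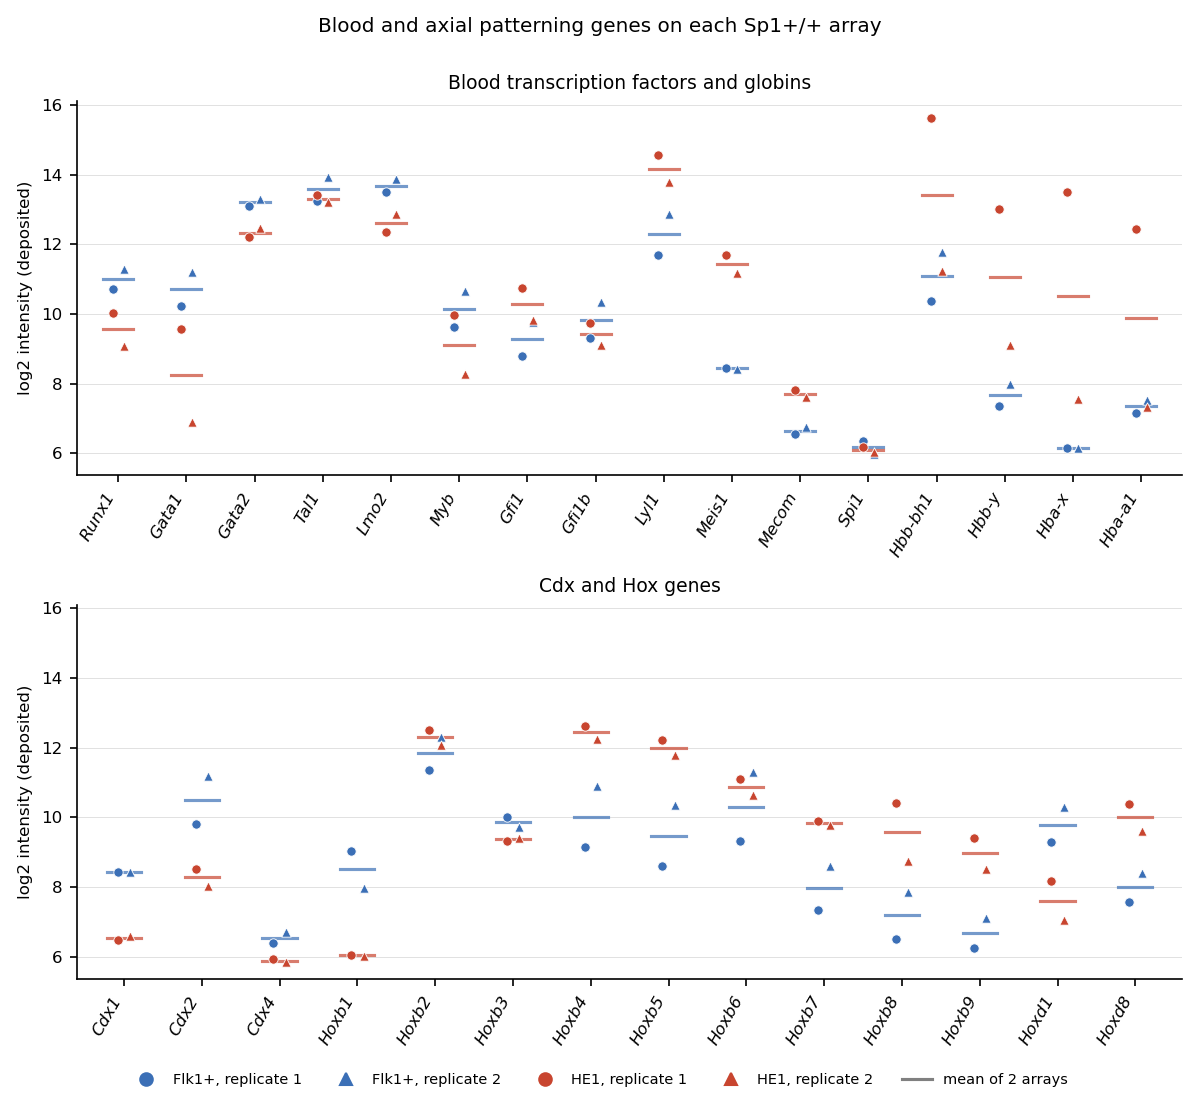
Deposited log2 intensity of blood transcription factor, globin, Cdx and Hox genes on the 2 Flk1+ arrays (blue) and the 2 HE1 arrays (red), replicate 1 as circles, replicate 2 as triangles, bars the mean of 2 arrays. All globins are highest on the HE1 array of replicate 1, and Hoxb4, Hoxb5 and Hoxb7 to Hoxb9 are higher on both HE1 arrays than on both Flk1+ arrays.

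Hox and Cdx genes set position along the body axis and are used again in blood. Of 42 Hox and Cdx genes 8 rose and 4 fell (median 0.18), and 34 were well above background on both arrays of a population. Cdx2 fell from 9.80 and 11.19 to 8.51 and 8.04 and Cdx1 by 1.89. Hoxb1 fell at least 5.11-fold to background (adjusted p = 2.24e-05, limma) and Hoxd1 by 2.18. In the Hoxb cluster, Hoxb4 was at 9.14 and 10.91, then 12.63 and 12.25, Hoxb5 at 8.59 and 10.36, then 12.22 and 11.78, and Hoxb7, Hoxb8 and Hoxb9 rose by 1.87 ± 0.40, 2.39 ± 0.54 and 2.29 ± 0.29. Hoxb2 (0.46), Hoxb3 (-0.49) and Hoxb6 (0.58) were not called. Outside it Hoxd8 rose by 2.01 ± 0.39 and Hoxd10 by 1.14 ± 0.21, and no Hoxc gene was called. Leaving out 1 array, with the change then measured in brackets, ended the call of Hoxb5 without Flk1+ replicate 1 (1.64) or HE1 replicate 1 (2.31), of Hoxb8 without Flk1+ replicate 1 (1.72) or HE1 replicate 1 (1.57) and of Hoxd10 without Flk1+ replicate 1 (0.86) or HE1 replicate 1 (0.92). For the 5 Hoxb genes that rose, the Flk1+ array of replicate 2 was higher than that of replicate 1 by 0.84 to 1.77.

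Primitive streak and early mesoderm genes fell in 27 of 39 cases and rose in 2 (median -2.22), which is the largest share of falls of the lists. After the T-box and homeobox genes named above, Gsc of the organizer fell at least 25.2-fold (adjusted p = 4.30e-06, limma), Pdgfra, the receptor gene of paraxial and cardiac mesoderm, went from 11.85 and 10.68 to 7.47 and 7.16, and Snai1, which drives cells out of the epithelium, fell by 2.82. Hand1 fell from 14.01 and 14.15 to 12.12 and 11.80. Lhx1 fell by 2.22, Foxh1 by 2.29 and Lefty2 by 2.23. The rises in this list were Foxa2, at 6.71 and 6.53, then 8.65 and 8.54, and Apln, the apelin gene, by 1.71 ± 0.44. Of pluripotency and epiblast genes 16 of 35 fell and 2 rose (median -0.82). Pou5f1, encoding Oct4, went from 10.31 and 9.33 to 6.46 and 6.62, Fgf15 from 11.62 and 12.07 to 6.96 and 6.73, and Otx2 from 10.99 and 8.69 to 6.94 and 6.82. Sall4 fell by 2.35 and the de novo methyltransferase gene Dnmt3b by 1.71. Nanog, at 8.34 and 8.33, then 9.39 and 9.08, and the let-7 antagonist gene Lin28a, at 14.29 and 14.15, then 13.65 and 13.53, were not called, and Dppa4 and Klf4 rose by 1.94 ± 0.18 and 1.62 ± 0.35. With the change then measured in brackets, 1 array fewer ended the call of Hand1 without HE1 replicate 2 (-1.96), of Apln without Flk1+ replicate 2 (1.62) or HE1 replicate 2 (0.87) and of Klf4 without HE1 replicate 1 (1.24).

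The signalling pathways of the streak were read next. In the Wnt pathway 18 of 49 genes fell and 3 rose (median -0.48). Ligand genes Wnt5b and Wnt3 fell by 4.32 and 3.32 and Wnt5a by 2.40. Of genes that Wnt signals induce, Axin2 went from 10.36 and 10.19 to 6.96 and 6.69, Lgr5 from 11.32 and 11.98 to 6.99 and 7.11, Nkd1 from 13.12 and 12.81 to 9.54 and 9.53 and the antagonist gene Dkk1 from 12.74 and 12.12 to 8.85 and 8.11. The effector genes Tcf7 and Lef1 fell by 2.76 and 1.31. As the changes in brackets show, the call was lost for Lef1 without Flk1+ replicate 1 (-1.16) or HE1 replicate 1 (-0.95). Meanwhile Ctnnb1, encoding β-catenin, was not called (0.74). The endothelial receptor gene Fzd4 rose by 1.47 ± 0.24, Fzd8 by 1.42 ± 0.16 and the ligand gene Wnt9a by 1.45 ± 0.18. Promoter windows are shown for 2 falling genes in which they hold ATCAAAG, the letters read by TCF and LEF factors, or the reverse complement. That motif was in 4 of 29 windows of the primitive streak list (13.8%), in 2.53% of windows of all genes that fell and in 3.19% of all windows. It was also in 2 of 20 windows (10.0%) of the endothelial surface, junction and secreted genes and in 1 of 16 (6.25%) of the endothelial receptor genes. For endothelial transcription factor genes it was in 1 of 21 windows, and for cardiac and smooth muscle genes in 1 of 29. The windows of T and Axin2, which also fell, do not hold it. The Sp5 window is chr2:70474673-70474972 on the plus strand and the Mesp1 window chr7:79793541-79793840 on the minus strand (GRCm38.p6, RefSeq), printed with the motif in capitals.
Sp5: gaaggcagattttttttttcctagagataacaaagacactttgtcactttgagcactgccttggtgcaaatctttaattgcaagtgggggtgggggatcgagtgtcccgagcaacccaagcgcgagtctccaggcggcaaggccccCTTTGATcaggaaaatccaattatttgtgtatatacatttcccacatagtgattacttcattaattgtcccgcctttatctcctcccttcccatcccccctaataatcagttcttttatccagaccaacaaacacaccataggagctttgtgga
Mesp1: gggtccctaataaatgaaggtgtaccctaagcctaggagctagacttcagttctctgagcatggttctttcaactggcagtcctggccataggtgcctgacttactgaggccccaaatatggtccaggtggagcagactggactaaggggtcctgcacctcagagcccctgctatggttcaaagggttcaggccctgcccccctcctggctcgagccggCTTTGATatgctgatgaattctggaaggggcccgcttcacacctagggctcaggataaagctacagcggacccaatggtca

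In the FGF pathway 10 of 23 genes fell and 1 rose, Flrt2 by 1.94 ± 0.15 (median of the list -1.04). Fgf8 was at 11.61 and 11.09, then 7.26 and 7.13 and Fgf10 fell by 2.82. The ETS genes that report FGF signals, Etv5 and Etv4, fell by 2.88 and 2.13, and the feedback inhibitor gene Spry1 by 1.40, whereas Dusp6, encoding a phosphatase that FGF signals induce, was at 13.14 and 12.15, then 12.34 and 12.85, and was not called. The BMP, Nodal and TGF-β pathway was split, with 8 of 49 genes higher and 9 lower (median 0.04). On the side of the ligands and co-factors of the streak, Bmp7 went from 12.31 and 11.97 to 7.02 and 6.72, the antagonist gene Fst fell by 3.65 and the Nodal co-receptor gene Tdgf1 fell by 1.96. On the other side Bmp6 was at 7.85 and 8.12, then 11.79 and 12.28, and the receptor genes Tgfbr2 and Tgfbr3 rose by 3.22 ± 0.16 and 1.81 ± 0.27, along with Acvrl1 and Eng. The BMP targets Id1 (0.51) and Id2 (0.72) were not called. Among epithelial, mesenchymal and EMT genes 7 of 32 fell and 2 rose (median -0.21). Cdh11, a mesenchymal cadherin gene, went from 11.66 and 11.15 to 7.59 and 6.85, Msx2 and Msx1 fell by 2.97 and 2.56, and Epcam fell at least 3.89-fold (adjusted p = 3.80e-06, limma). Vim, encoding vimentin, rose from 14.76 and 15.36 to 17.88 and 17.68 and the keratin gene Krt19 by 2.34 ± 0.63. Leaving out 1 array, with the change then measured in brackets, ended the call of Krt19 without Flk1+ replicate 1 (2.08) or HE1 replicate 1 (1.55).

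Of 40 replication and mitosis genes 1 rose and 3 fell, although 34 had a negative change and the median was -0.43. The called falls were Ccnd2 by 2.42, Ccne1 by 1.81 and Mcm10 by 1.24, the rise was Ccnd3, by 1.00 ± 0.09, and Mki67 was at 14.75 and 14.66, then 14.93 and 14.86. With the change then measured in brackets, 1 array fewer ended the call of Ccnd3 without Flk1+ replicate 1 (0.89) or HE1 replicate 1 (0.97). Of 14 cell cycle inhibitor genes 5 rose and 0 fell (median 0.86). Cdkn1a, encoding p21, was at 10.28 and 11.49, then 13.13 and 13.51, and Cdkn2a, Cdkn2b and Cdkn2c rose by 2.54 ± 0.11, 2.36 ± 0.40 and 2.05 ± 0.16, and the antiproliferative gene Btg1 by 1.51 ± 0.20. In the IGF and growth list 6 of 20 genes rose and 1, Myc, fell (median 0.40). The imprinted neighbours Igf2 and H19 were at 11.91 and 12.74 and 11.98 and 12.58 in Flk1+ cells and at 15.01 and 15.14 and 15.59 and 15.78 in HE1, and the imprinted gene Mest went from 13.77 and 14.72 to 17.09 and 17.82. Igf1 rose by 3.23 ± 0.43 and Igf2r by 2.16 ± 0.18. Glycolysis and glucose uptake genes fell in 7 of 24 cases and rose in 1 (median -0.57). Aldoc went from 12.80 and 12.96 to 9.11 and 8.39, the lactate exporter gene Slc16a3 from 15.73 and 15.83 to 11.44 and 12.42, and Hk2 fell by 1.55, while Hk1 rose by 1.95 ± 0.27 and Gapdh was at 18.24 and 18.29, then 18.19 and 18.17. Cholesterol genes fell in 2 of 24 cases, Lss by 1.48 and Hsd17b7 by 1.53, and 23 had a negative change (median -0.53). Of 83 cytosolic ribosomal protein genes none was called (median -0.04), and of 81 nuclear genes of the respiratory chain 1, Ndufa8, rose by 1.15 ± 0.15 and 1, Cox7a1, fell by 1.86 (median -0.05).

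Blast medium contains IL-6, which the recipe of the embryoid body medium does not name. The part of IL-6 in the levels below was not tested. The IL-6 receptor and STAT3 pathway was listed with earlier results of these data known. Of 18 genes 7 rose and 1 fell (median 0.88). Socs3, the feedback inhibitor gene of STAT3, was at 9.47 and 9.48, then 12.52 and 12.32, Bcl3 at 7.64 and 7.36, then 11.91 and 10.88, and Cebpd rose by 1.79 ± 0.19. The receptor genes Il6ra (0.91) and Il6st (0.73) were not called, and Socs1 fell by 1.35. Of 12 genes of DNA methylation and its removal, Tet2 rose by 1.39 ± 0.19 and Mbd2 by 2.00 ± 0.17, and Dnmt3b fell (median -0.04).

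**Figure D4:**
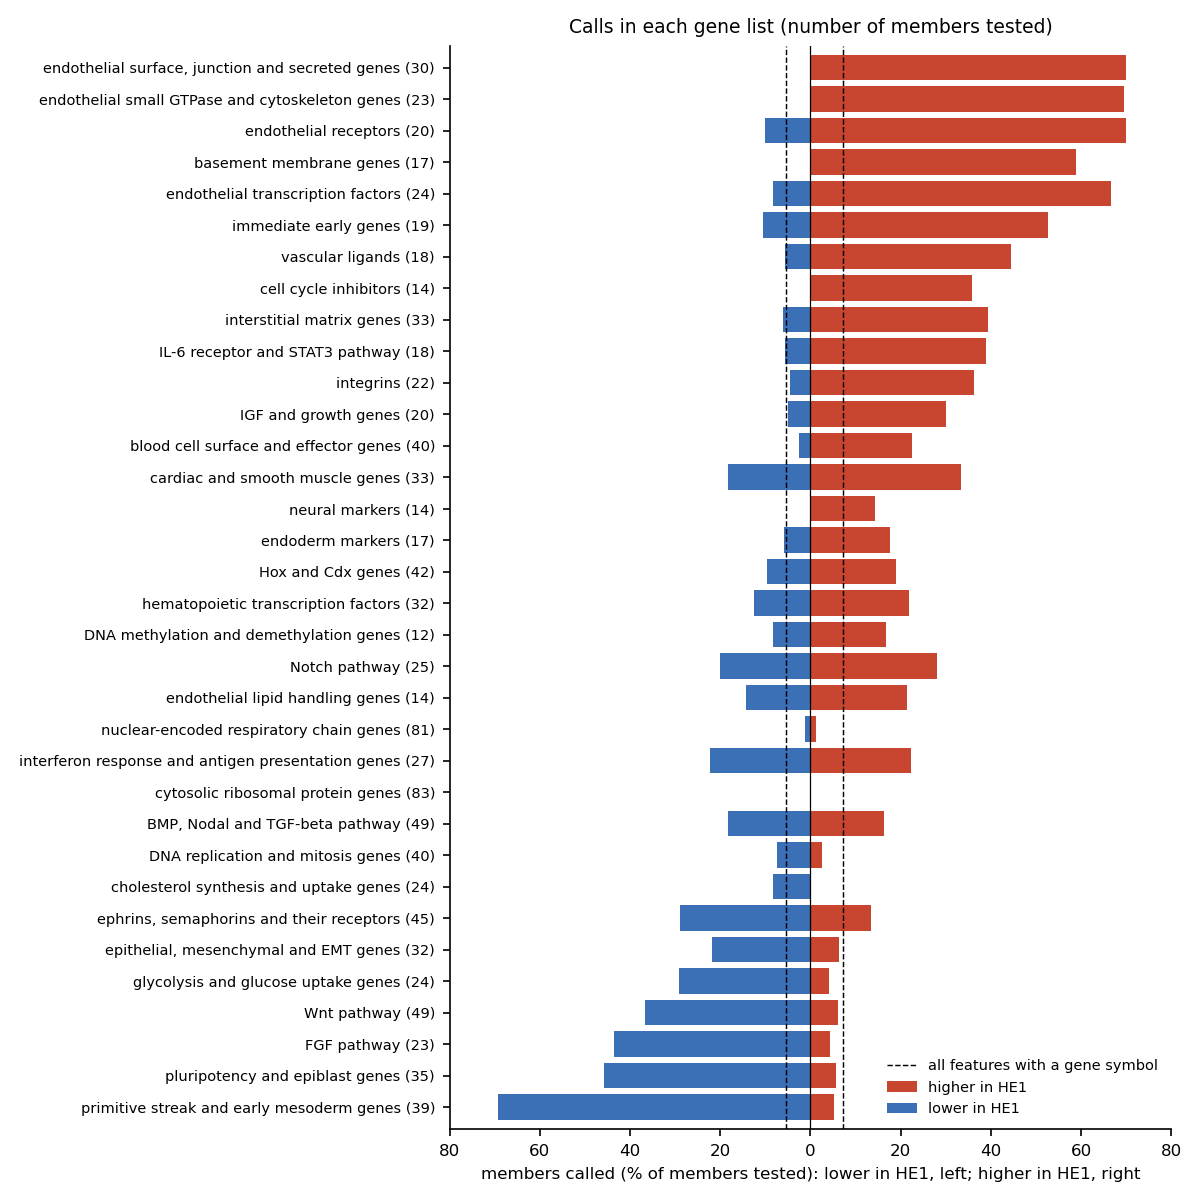
Share of the tested members of each gene list called lower (blue, to the left) or higher (red, to the right) in HE1 than in Flk1+ cells, as a percent, with the number tested in brackets. The dashed lines mark 5.48% lower and 7.23% higher among all features with a gene symbol; endothelial lists lie at the top and the streak, pluripotency, FGF and Wnt lists at the bottom.

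The same step in Sp1-/- cells lies on the other slide, and the difference between the changes of the 2 genotypes was tested in the same fit. Each change is taken within a slide, but genotype, line and slide cannot be told apart in their difference. The change was called different for 596 of 37149 features (1.60%), 264 (0.711%) with a more positive and 332 (0.894%) with a more negative change in Sp1-/- cells, and their adjusted p reached 0.207. Of the 3181 features called in Sp1+/+ cells, 284 (8.93%) were among them. The same Sp1+/+ arrays enter both calls, so the calls are not independent and this share was not taken as a result. In Sp1-/- cells, Cdh5 was at 9.22 and 9.61 on the Flk1+ arrays and at 14.54 and 14.62 on the HE1 arrays. Foxa2, an endoderm and node factor gene, had a log2 change of 1.98 in Sp1+/+ and of -1.24 in Sp1-/- cells, the latter from 9.55 and 9.05 to 8.58 and 7.54 (adjusted p = 0.00541 for the difference, limma). For Otx2 the changes were -2.96 and -6.05 (adjusted p = 0.100, limma). Robo3, an axon guidance receptor gene, was at 9.25 and 7.78, then 7.48 and 7.56 in Sp1+/+ and at 11.13 and 10.74, then 6.97 and 6.81 in Sp1-/- cells (adjusted p = 0.0351, limma). In the other direction they were, for Slc32a1, the vesicular GABA transporter gene, -4.72 in Sp1+/+ and -1.78 in Sp1-/- cells (adjusted p = 0.182, limma), for Aspg -3.75 and -0.97 (adjusted p = 0.0203, limma) and for Tmem114 -3.31 and -0.82 (adjusted p = 0.0253, limma). Otx2 and Slc32a1 did not pass an adjusted p of 0.05. As the changes in brackets show, the call was lost for Slc32a1 without Sp1+/+ Flk1+ replicate 2 (2.22), Sp1+/+ HE1 replicate 2 (2.07), Sp1-/- Flk1+ replicate 1 (2.83), Sp1-/- Flk1+ replicate 2 (3.04) or Sp1-/- HE1 replicate 2 (2.62) and for Otx2 without Sp1-/- Flk1+ replicate 1 (-2.66). In Sp1-/- cells Cd34 was at 8.98 and 8.93 on the Flk1+ and 13.83 and 14.13 on the HE1 arrays, and its change differed from that in Sp1+/+ cells by -2.58 ± 0.46 (adjusted p = 0.0299, limma).

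**Figure D5:**
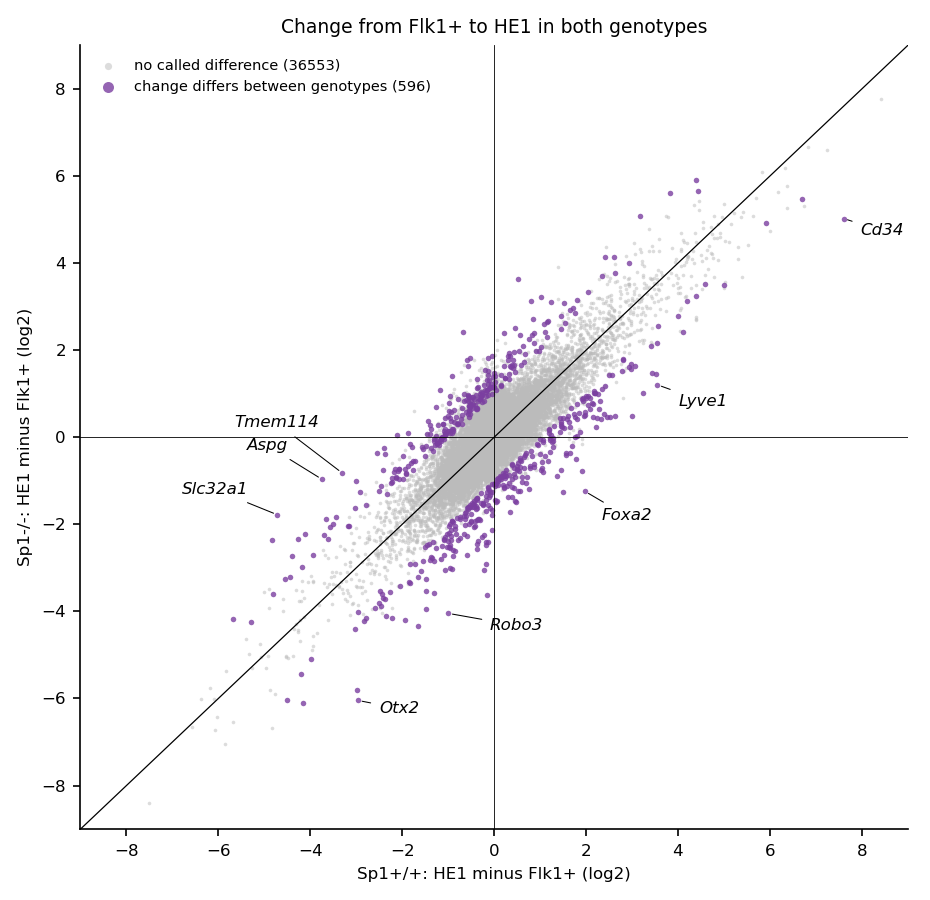
Log2 change from Flk1+ to HE1 in Sp1-/- cells against that in Sp1+/+ cells for 37149 features, each the difference of means of 2 arrays, with the line of equal change. The 596 features called for a different change are purple; Foxa2, Otx2, Robo3, Cd34 and Lyve1 lie below the line and Slc32a1, Aspg and Tmem114 above it.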

How the data were processed

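RNA of each population was labelled in 1 colour and hybridised to Agilent mouse arrays, which Agilent Feature Extraction 10.7.1.1 read, per the labels. The authors deposited scanner intensities for each array and a table of log2 values, background corrected and quantile normalized over the 16 arrays. The deposited log2 values matched the normexp correction of limma with an offset of 50. The methods name an offset of 16, which was run as an alternative and gave 1988 features higher and 1761 lower in HE1. The larger offset shrinks changes of weak signals, so folds with 1 side near the floor may be understated.

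From the log2 table, control spots and outlier flags were left out and repeated spots were averaged. Probes that reached a log2 value of 6 on at least 1 of the 16 arrays were kept, and the brightest probe stood for each gene. Further probes of a called gene can differ from it, and the mean over probes was an alternative. Symbols came from the target names of the arrays. One linear model over 16 arrays in 8 groups (8 residual degrees of freedom) was fitted with limma 3.58.1 in R 4.3.3, with empirical Bayes moderation. The call asked for a 2-fold change and an unadjusted p no higher than 0.01, as the methods do, and p-values were also adjusted by Benjamini-Hochberg over all features tested. The fit was tested on simulated data. The same fit gave the difference between the changes of the 2 genotypes.

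Genes were named by rule: the sort genes, the 15 largest rises and falls among called genes whose groups do not overlap, the called members of each list with the largest changes and its defining members, and the 3 largest differences between genotypes in each direction. Cd34 and Lyve1 in that last comparison, and the genes used to show how replicates differ, were chosen after their values were seen. Some genes that the rule names are not reported here. The members and lists were chosen with earlier results of these data known. The alternatives were other background corrections and scalings, no intensity minimum, probes above background alone, the mean over probes, a replicate block, fits of 8 or 4 arrays, each array left out, adjusted thresholds and a t-test, which the methods name for comparisons between genotypes. Promoter windows were matched by symbol for 15960 of 20118 genes (RefSeq, GRCm38.p6).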

Additional observations from a re-analysis of the deposited data

Results flagged for a closer look

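The step from Flk1+ to HE1 differed between the genotypes, by the test of the difference itself in limma at an unadjusted p of 0.01 and a 2-fold difference, for 23 of the genes named here. Over all features tested it did so for 596 of 37149 (1.60%). The 23 include the 3 genes in each direction named for the largest difference, so their number is partly set by the choice of genes. Of 263 genes named for the step in Sp1+/+ cells, 231 were called on the same Sp1+/+ arrays that enter this test. The number was therefore not set against the share over all features. On the log2 scale the change in Sp1-/- minus that in Sp1+/+ cells was 2.94 for Slc32a1, 2.78 for Aspg, 2.49 for Tmem114, 1.82 for Runx1, 1.60 for Nkd1, 1.05 for Fgf3 and 1.05 for Socs3. It was -3.22 for Foxa2, -3.09 for Otx2, -3.05 for Robo3, -2.58 for Cd34, -2.35 for Lyve1, -1.96 for Fgf8, -1.94 for Lhx1, -1.92 for Apln, -1.76 for Vegfa, -1.42 for Meis1, -1.41 for Hoxb1, -1.30 for Itga3, -1.23 for Trim47, -1.23 for Col18a1, -1.19 for Wnt9a and -1.03 for Dppa4. With Benjamini-Hochberg adjustment over all features tested, 9 of them had an adjusted p of 0.05 or less, namely Aspg, Cd34, Fgf8, Foxa2, Lyve1, Meis1, Nkd1, Robo3 and Tmem114. Each change rests on 2 arrays in each group, and the genotypes lie on different slides, so genotype and slide cannot be told apart. Groups of 2 arrays are too small for a test of single arrays that stand apart.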

How the results depend on the processing

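Leaving out 1 array gave between 1620 and 1805 features higher in HE1 and between 1380 and 1602 lower, against 1731 and 1450 with all arrays. From the processed signals scaled to the 75th percentile, 2079 were higher and 2265 lower, and the median change of all features was -0.14 in place of -0.01. A t-test for each feature, which the methods name for comparisons between genotypes and not between stages, at its unadjusted threshold gave 799 higher and 611 lower, and after Benjamini-Hochberg adjustment 0 in both directions, where limma gave 1735 and 1457 at an adjusted p of 0.05. That test estimates each spread from 4 arrays. Features whose change was more positive in Sp1-/- cells numbered 410 from processed signals, against 264, and 184 to 926 with 1 array left out, where the lack of Sp1+/+ Flk1+ replicate 1 gave 487 and that of Sp1-/- HE1 replicate 1 gave 926. Those with a more negative change numbered 332, and 247 to 598 with 1 array left out, with 598 for the lack of Sp1-/- HE1 replicate 1. The cause of these shifts was not tested. The Flk1+ and HE1 samples of the same replicate number did not deviate together (r = 0.00). Over all pairs of Sp1+/+ populations r ran from -0.15 to 0.50, highest for HE1 with HE2, and not every pair was over 0.1, so the numbers were not taken as pairs. With the replicate number as a block, 1735 features were higher, 1468 lower, 302 more positive and 339 more negative, and of the genes named Hbb-y (3.40) lost its call. Calls were lost for Apln, Gata1, Hbb-y, Hoxb8, Ikzf1, Kit, Lefty2, Otx2 and Runx1 with the 4 compared arrays alone in the fit, for Apln, Gata1, Hbb-y, Hoxb5 and Krt19 with the 8 Sp1+/+ arrays, for Ccnd3, Hoxb5 and Lef1 from processed signals and for Ikzf1, Notch2 and Spn as the mean over probes. None of the 231 called genes named changed sign under the alternatives run gene by gene, and 209 kept their call under each of them. The t-test and the adjusted thresholds were counted over all features only and are not among these. Leaving out 1 array cannot turn the sign of a gene whose groups do not overlap, and the groups overlapped for 1 of 3181 called features. The block and the fits of 8 or 4 arrays altered the spread but not the change, as for Hbb-y (3.40). The kept signs are therefore little evidence of stability. Signs turned for some uncalled genes, for Kdr (0.23) and Hoxb3 (0.33) as the mean over probes, for Ptprc (-0.0593) from processed signals, and with 1 array left out, ranges in brackets, for Col1a1 (-1.54 to 0.67), Dcn (-0.31 to 0.29), Dusp6 (-0.55 to 0.45), Hba-a1 (-0.02 to 5.10), Hoxb2 (-0.015 to 0.94), Hoxb6 (-0.41 to 1.57), Kdr (-0.18 to 0.14), Notch1 (-0.22 to 0.39), Ptprc (-0.06 to 0.13), Spi1 (-0.25 to 0.11) and Tal1 (-0.64 to 0.07). The median of the lists moved by less than the spread between arrays in 265 of 350 list and setting pairs, and no median of at least 2-fold changed sign. Low signal limits 96 of the higher features, not above background on either Flk1+ array, and 90 of the lower ones, not above it on either HE1 array, for which folds are bounds.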

Other observations

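Some gene groups that belong to no question above were read as well. Their counts stand beside 7.23% higher and 5.48% lower among all features with a symbol. Ephrins, semaphorins and their receptors, which guide cells and axons by contact or at a distance, were lower in 13 of 45 cases and higher in 6 (median -0.21). Plxnc1 rose by 3.96 ± 0.21, Epha2 by 2.83 ± 0.39 and Plxnd1, the semaphorin receptor gene of vessels, by 2.69 ± 0.30. Epha1, Plxna4 and Sema5a fell by 2.48, 2.48 and 2.35. Interferon response and antigen presentation genes rose in 6 of 27 cases and fell in 6 (median -0.07). Ifitm1, also a gene of early mesoderm and germ cells, went from 15.61 and 15.20 to 11.80 and 10.49, while B2m, encoding the light chain of MHC class I, went from 12.49 and 12.36 to 14.82 and 14.74.

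Of 14 genes of lipid handling in endothelium 3 rose and 2 fell (median 0.35). Scarf1, a scavenger receptor gene, rose by 1.72 ± 0.16, Plpp1 by 1.68 ± 0.27 and the cholesterol exporter gene Abca1 by 1.58 ± 0.21, while Lpl and Fabp5 fell by 1.93 and 1.38. Of 17 endoderm genes 3 rose and 1 fell (median -0.035). The rises were Sox17, also an endothelial gene, Foxa2 and Cubn, by 2.02 ± 0.16, and Rbp4 fell by 3.73. Of 14 neural genes 2 rose and 0 fell (median 0.045). The rises were Nes, encoding nestin and also used by endothelium, by 2.18 ± 0.24 and Tubb3 by 2.11 ± 0.49. Leaving out 1 array, with the change then measured in brackets, ended the call of Tubb3 without Flk1+ replicate 1 (1.81) or HE1 replicate 1 (1.60).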
